A study of Arvicanthis niloticus with 28 samples.

Results

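The genes described here are 38 genes of glucose use in the retinal vasculature of Nile rats: 21 of glycolysis with lactate export and the enzymes that set fructose 2,6-bisphosphate, 3 of the polyol and fructose route, 4 of the pentose phosphate pathway, 3 of the hexosamine pathway, and 7 that govern pyruvate oxidation, glucose entry and sensing, or methylglyoxal removal. They were chosen by name from these pathways, and all 38 stand among the 18970 genes of the expected count and TPM (transcript level scaled by gene length and library total) tables and passed the filter on low counts. They were compared mainly by the blood glucose of the rats and then by the density of acellular capillaries.

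RNA of the whole retinal vasculature of 28 wild-type, untreated Nile rats (Arvicanthis niloticus, a day-active rodent that can become diabetic on energy-rich chow) was sequenced, with 1 library per rat. The labels give no age, and they do not tie a diet to a rat. The hyperglycemic group held 5 rats with a random blood glucose of 225.7 to 443.4 mg/dL (4 males, T370M, T391M, T446M and T389M, and 1 female, T392F), and the normoglycemic group held 23 rats with 52 to 146.9 mg/dL (8 males, 15 females). The pre-dropout group held 4 males with 17.08 to 17.86 acellular capillaries per mm2, 2 of them hyperglycemic (T391M, T389M) and 2 normoglycemic (T353M, T407M), and the normal density group held 24 rats with 5.898 to 14.51 (8 males, 16 females). The glucose and density comparisons therefore share rats. Random blood glucose is a single label for each rat, and the duration of hyperglycemia was not analysed here. The study measured glucose repeatedly from weaning, and labels with long fractions, such as that of T389M, read as means of several readings. The labels do not state this.

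Library totals ran from 153111 counts in T410F to 10029207 in T424M, and T448M was the only other library under 1000000 counts. All 10 endothelial markers had a count in every rat, and Cldn5, the endothelial tight junction protein, was the most abundant of them by TPM, at 26480 ± 10970 (SD, n = 28). That level rests on the gene length used: relative to the median gene, counts per TPM were 0.065 for Cldn5 and 3.39 for Gapdh. Markers of other cells were also present: Apoe, of glia and macrophages, averaged 5842 TPM and Hbb-bs of erythrocytes 4346 TPM. In bulk tissue, fewer cells of a type and less RNA per cell cannot be told apart. T370M, a hyperglycemic rat, had the highest summed rod markers of all, 8541 TPM.

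Glycolysis splits glucose into pyruvate, which is either reduced to lactate and exported or oxidized in mitochondria, and endothelial cells are known to lean on glycolysis even when oxygen is at hand. When glucose is high, side branches of the same route receive more of it: aldose reductase turns glucose into sorbitol, the pentose phosphate pathway takes glucose 6-phosphate to make NADPH and ribose, and the hexosamine pathway takes fructose 6-phosphate to make the sugar nucleotide used to modify proteins. These branches, with methylglyoxal formed from triose phosphates, are the classical routes studied in diabetic retinal vessels.

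Among the glycolysis genes chosen here, Aldoc (aldolase C) was the most abundant by TPM, at 559 ± 263 (SD, n = 28). Eno1b, an enolase row outside the chosen genes, was higher and is given below. Aldoc was followed by Aldoa (aldolase A) at 251, Pgam1 (phosphoglycerate mutase) at 244 and Tpi1 (triose phosphate isomerase) at 215. Next came Ldha (the lactate dehydrogenase A subunit) at 201 and Gapdh (glyceraldehyde 3-phosphate dehydrogenase) at 156. Pkm (pyruvate kinase) averaged 126 TPM, Gpi1 (glucose 6-phosphate isomerase) 111 and Pgk1 (phosphoglycerate kinase) 95.6. The 9 chosen genes from aldolase to pyruvate kinase together averaged 1739 TPM, against 334.6 for the 6 genes of hexokinase, the isomerase and phosphofructokinase. The sum of 1739 TPM leaves out Eno1b, so it understates the enolase step. Hk1, the hexokinase of most tissues, averaged 102.6 TPM, whereas Hk2, the insulin-responsive hexokinase, averaged 0.940 TPM and had a count in 19 of 28 rats. Of the phosphofructokinases, which commit sugar to glycolysis, Pfkl averaged 72.6 TPM, Pfkm 35.7 and Pfkp 11.5. Ldhb, the lactate dehydrogenase subunit of oxidative tissues, averaged 47.6 TPM, and Slc16a3, the lactate exporter MCT4, averaged 32.3.

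**Figure D1:**
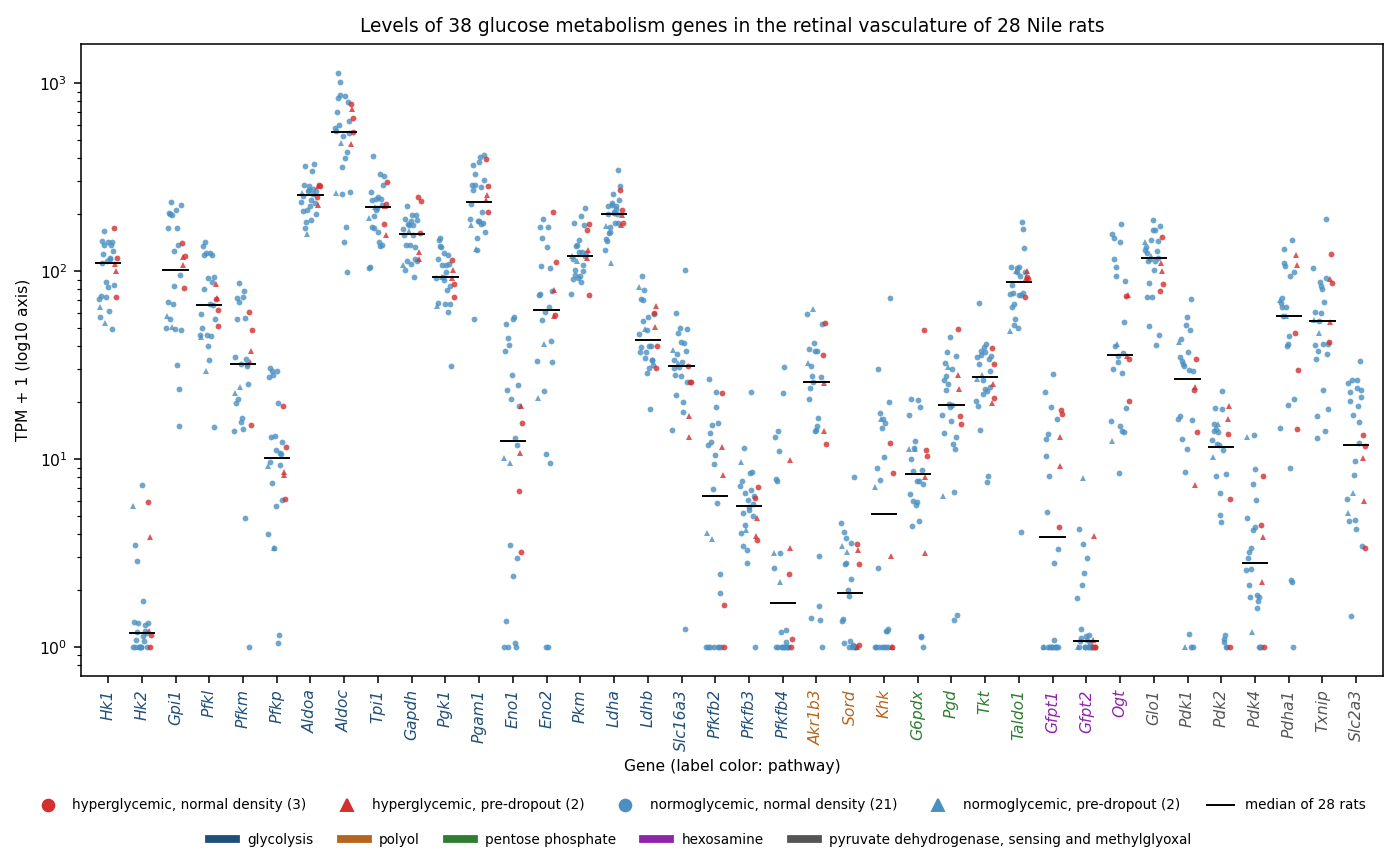
TPM + 1 of each of the 38 genes on a log10 axis, 1 point per rat (red hyperglycemic, blue normoglycemic, triangles pre-dropout), with a black line at the median of 28 rats and label colors for the pathway. Aldoc, Aldoa, Tpi1, Pgam1 and Ldha lie highest, and Hk2 and Gfpt2 lie near 0 in most rats.

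The order of levels between genes rests on the gene lengths that the pipeline used. Counts per TPM are proportional to that length, and Gapdh had 9.90 times as many counts per TPM as Aldoc, while Aldoa had 4.97 times as many. In counts the aldolases stood the other way round: summed over 28 rats, Aldoa held 82610 counts and Aldoc 37940. Aldoc was thus 65.3% ± 14.7 of aldolase TPM but 30.2% ± 11.8 of aldolase counts (SD, n = 28). Differences between rats within 1 gene do not depend on the length.

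Enolase, which forms phosphoenolpyruvate, was split over near-identical rows. Eno1, the enolase of most cells, averaged 17.5 TPM and had the highest value, 56.0, in T419F. Eno1b, a mouse row for a near-copy of Eno1 that has no entry in the Nile rat RefSeq annotation, averaged 2097 TPM and was higher than any of the 38 genes. Eno1 was 0.809% ± 0.792 of the sum of both rows (SD, n = 28), so the level of Eno1 alone is uncertain, and the sum, 2114 ± 450 TPM, is given beside it. Eno2, the neuronal enolase, averaged 76.2 TPM and was 78.9% of Eno1 plus Eno2, but 3.26% when Eno1b was added.

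The side branches were carried by fewer transcripts. In the pentose phosphate pathway, the non-oxidative enzymes Taldo1 (transaldolase, 86.1 TPM) and Tkt (transketolase, 27.7 TPM) stood above the oxidative enzymes Pgd (phosphogluconate dehydrogenase, 20.5 TPM) and G6pdx (glucose 6-phosphate dehydrogenase, 9.40 TPM), and the 4 summed to 143.7 ± 36.3 TPM (SD, n = 28). In the polyol route, Akr1b3 (aldose reductase) averaged 24.9 TPM, Sord (sorbitol dehydrogenase, which makes fructose) 1.35 and Khk (ketohexokinase, which phosphorylates fructose) 8.84. Summed over all rats they held 2308, 1586 and 977 counts, so the order of Sord and Khk rests on the lengths used. In the hexosamine pathway, Ogt (the transferase that puts N-acetylglucosamine on proteins) averaged 58.5 TPM, while the entry enzymes Gfpt1 and Gfpt2 averaged 6.73 and 0.786. The 3 Pfkfb genes, which set the amount of the phosphofructokinase activator fructose 2,6-bisphosphate, averaged 7.34 (Pfkfb2), 5.32 (Pfkfb3) and 4.30 TPM (Pfkfb4).

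Among the remaining genes, Glo1 (glyoxalase, which removes methylglyoxal) averaged 114 TPM, Txnip (a glucose-induced inhibitor of glucose uptake) 59.4, and Pdha1 (a pyruvate dehydrogenase subunit) 58.1. Pdk1, Pdk2 and Pdk4, kinases that switch pyruvate dehydrogenase off, averaged 25.1, 9.19 and 3.0 TPM. Slc2a3, the neuronal glucose transporter GLUT3, averaged 12.8 TPM, and Slc2a1, the endothelial transporter GLUT1 and not one of the 38, had a median of 342.2 TPM.

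The steadiest genes across the 28 rats were Aldoa, with a coefficient of variation of 0.210, Ldha with 0.246 and Gapdh with 0.269. Of the 38 genes, 21 had a count in every rat, and 5 had a count in fewer than 20 rats. In the whole table, 21.4% of genes had a count in every rat. The plot of the 38 genes by rat shows that many genes moved together in the same libraries: the normoglycemic females T401F, T404F, T414F, T397F and T419F were above the median of the 28 rats for Gpi1, Pfkm, Pfkp, Eno1, Eno2, Pfkfb4 and Ogt. The black line above that plot shows that these are also the rats with the highest inner neuron markers, together with T393F.

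**Figure D2:**
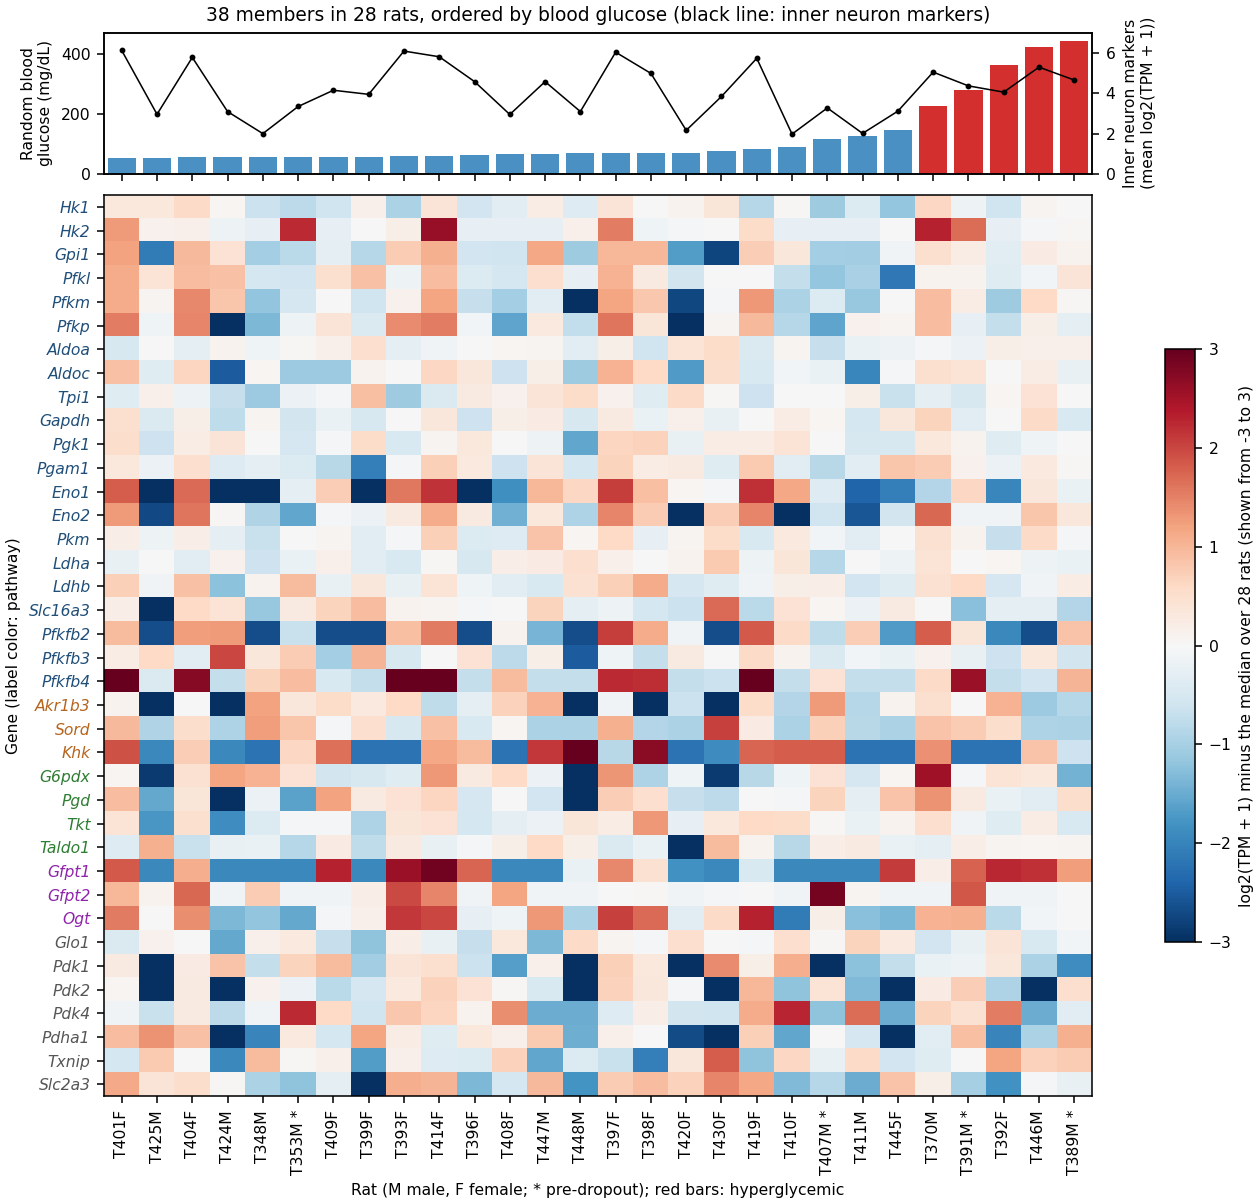
Upper panel, random blood glucose of each rat in mg/dL (bars, red above 200 mg/dL) and the mean log2(TPM + 1) of inner neuron markers (black line, right axis). Lower panel, log2(TPM + 1) of each gene minus its median over 28 rats, with rats ordered from 52 to 443.4 mg/dL. Red columns for Pfkp, Eno2 and Ogt fall in rats where the black line is high, at low as well as high glucose.

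Correlations with 4 marker lists and with the number of genes that had a count were computed over 28 rats, 190 relations in all, on log2(TPM + 1) with permutation tests. Ogt rose and fell with inner neuron markers at Pearson r = 0.85 and Spearman coefficient = 0.80 (p = 1e-05 for both by permutation, the smallest that 100000 permutations give, adjusted p = 0.00032 and 0.00027), and r was 0.82 without the 2 rats farthest from the median of the markers. Eno2 gave r = 0.80 and Spearman coefficient = 0.88 with the same permutation p of 1e-05, and Pfkp gave r = 0.77 and Spearman coefficient = 0.82, also with p = 1e-05. Without the 2 farthest rats, r was 0.81 for Eno2 and 0.77 for Pfkp. Pgd was closest to rod markers, at r = 0.70 and Spearman coefficient = 0.81 (permutation p = 6e-05 and 1e-05, adjusted p = 0.0013 and 0.00027), with r = 0.68 without the 2 farthest rats.

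Of the 38 genes, 1 had a positive and 6 a negative relation to endothelial markers at an adjusted p under 0.05 by both coefficients. Positive relations numbered 12 with rod, 12 with inner neuron and 9 with Müller and astrocyte markers, and negative ones 0. With the number of genes that had a count, 16 were positive and 1 negative. The share of all genes that would pass this limit was not computed. The positive one was Aldoa, at r = 0.64 and Spearman coefficient = 0.58 (permutation p = 0.00033 and 0.0016, adjusted p = 0.0039 and 0.011). Its r was 0.63 without the 2 farthest rats, and 1.45% of all genes tested had an r at least as high as that of Aldoa. The negative ones were Tkt, Eno2, Pfkfb4, Aldoc, Pgam1 and Gfpt1, with r from -0.54 to -0.46, and Tpi1 was positive by the Spearman coefficient alone. Of all genes tested, 88.9% had an r with endothelial markers at least as high as that of Gfpt1, and 95.9% as that of Tkt. Pfkfb4 followed the number of genes with a count at r = 0.88 and Spearman coefficient = 0.86 (permutation p = 1e-05 for both), and r was 0.85 without the 2 farthest rats. The median r of the 38 genes was 0.40 with inner neuron markers and -0.26 with endothelial markers. Over all genes tested those medians were 0.29 and -0.18. The medians of the 38 genes were 0.36 with rod markers, 0.32 with Müller and astrocyte markers and 0.42 with the number of genes with a count. Over all genes tested these were 0.28, 0.21 and 0.37. The direction was thus shared with most of the transcriptome, and the numbers of relations cannot be read as particular to the 38 genes. Marker levels and genes come from the same libraries and share their depth and composition, and which cells held the transcripts was not tested.

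**Figure D3:**
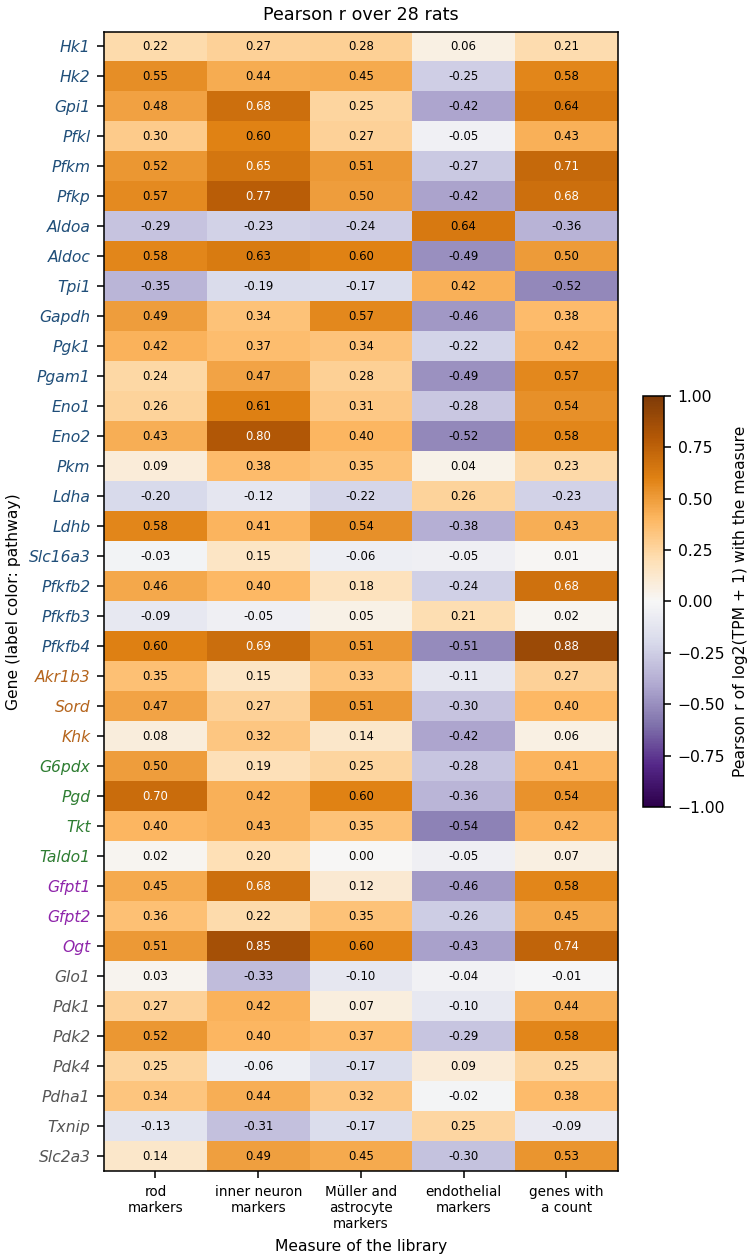
Pearson r over 28 rats between log2(TPM + 1) of each gene and 5 measures of the library. Ogt, Eno2 and Pfkp have their highest values under inner neuron markers, Pfkfb4 under the number of genes with a count, and Aldoa stands out as positive under endothelial markers.

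Hyperglycemic rats were compared with normoglycemic rats, and blood glucose was also fitted as a slope, to ask whether the transcripts for glucose use follow glucose itself. No gene of the 38 was called in either fit. In edgeR, with sex in the model, 0 of 13800 genes (0%) passed an adjusted p of 0.05 on the slope per 100 mg/dL. Between the groups 0 of 13800 (0%) passed that limit together with a 2-fold change. DESeq2 passed 22 genes on the slope and 45 between the groups. At an unadjusted p under 0.05, 1 of the 38 had a higher slope (Gfpt1) and 0 a lower one, against 2.27% and 1.54% of all genes. Between the groups 1 of the 38 was higher (Gfpt1) and 0 were lower, against 5.22% and 1.16% of all genes. The ranges of the hyperglycemic and normoglycemic rats overlapped for every one of the 38 genes, and 0% of the 13800 genes tested had ranges that did not overlap.

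In the group comparison 30 of the 38 estimates lay above 0, with a median of 0.19 on the log2 scale, and over all genes tested 56.0% lay above 0 with a median of 0.093. By pathway, 19 of 21 glycolysis genes lay above 0 (median 0.30), 2 of 3 polyol genes (0.13), 3 of 4 pentose phosphate genes (0.48), 2 of 3 hexosamine genes (0.46), and 4 of 7 of the rest (0.14). Normoglycemic females had the higher mean TPM than normoglycemic males for 29 of the 38 genes, a count that was not made over all genes. With no covariate for sex 24 of 38 estimates lay above 0 (median 0.12), and the median over all genes tested was -0.058. With library quality (log2 of the total counts, and the number of genes with a count) as covariates it was 21 of 38 (median 0.082, over all genes 0.022). With the rod marker level as a covariate it was 23 of 38 (median 0.10, over all genes 0.024). Neural marker estimates also leaned high in the glucose groups: 12 of 13 rod markers, 9 of 9 cone markers and 14 of 15 inner neuron markers tested lay above 0, with medians of 1.60, 2.50 and 1.09, of which 0 were called and 4, 4 and 2 had an unadjusted p under 0.05, while 0 of 8 pericyte markers did, with a median of -0.62. Summed rod markers ranged from 467 to 8541 TPM in hyperglycemic rats and from 202 to 4784 in normoglycemic rats. The part of the other markers in the estimates of the 38 genes was not tested.

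**Figure D4:**
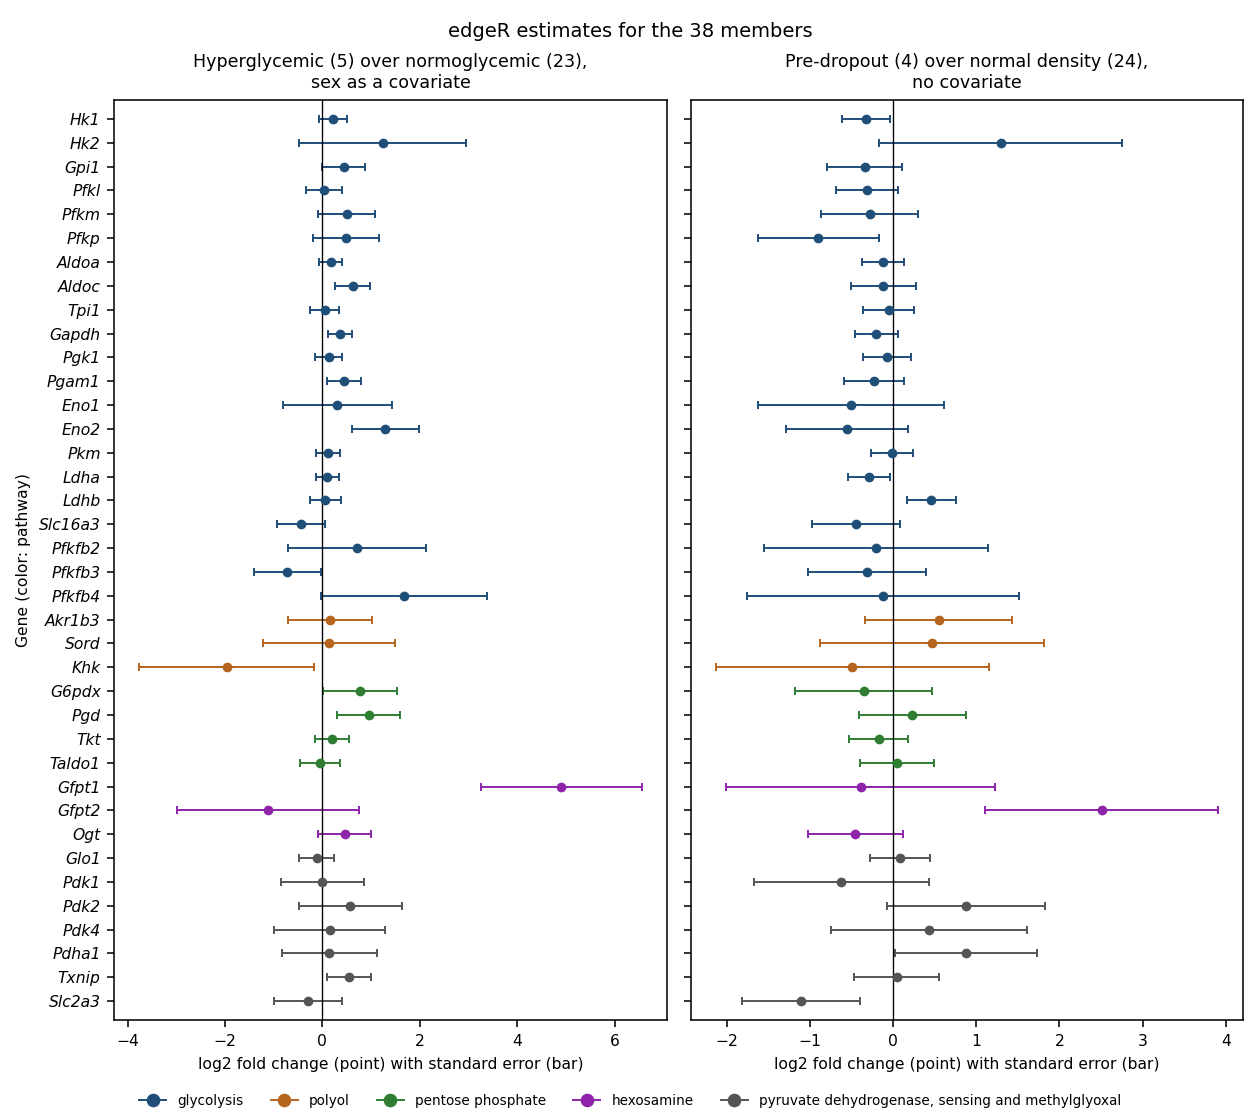
edgeR log2 fold changes of the 38 genes (points) with standard errors (bars), for hyperglycemic over normoglycemic rats with sex as a covariate and for pre-dropout over normal density rats with none. In the left panel 30 of 38 points lie right of 0 and Gfpt1 lies farthest, at 4.91. In the right panel 26 of 38 lie left of 0.

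Gfpt1, the enzyme that commits fructose 6-phosphate to the hexosamine pathway, gave the largest difference by glucose. Its TPM was 3.33 in T370M, 8.14 in T389M, 12.03 in T391M, 16.4 in T446M and 17.3 in T392F. In normoglycemic rats the lowest value was 0, the median 0.086 and the highest 27.2, in T414F. Every hyperglycemic rat had Gfpt1 counts, and 12 of 23 normoglycemic rats did.

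The counts also differed by sex. All 4 hyperglycemic males had counts, from 20 to 121, whereas 1 of 8 normoglycemic males did (T448M, with 4 counts). Among normoglycemic females 11 of 15 had counts, and T392F, the only hyperglycemic female, lay inside their range. The edgeR estimate was 4.91 on the log2 scale (SE 1.65, unadjusted p = 0.0049, adjusted p = 0.29), and because most normoglycemic males had no count the fold depends on how such zeros are handled. The slope was 1.5 per 100 mg/dL (SE 0.56, unadjusted p = 0.010, adjusted p = 0.99). Without sex as a covariate the group estimate fell to 1.13 (unadjusted p = 0.40), within males it was 5.39 (unadjusted p = 0.012), and DESeq2 called it at 5.30 (adjusted p = 0.038). Without the 2 libraries under 1000000 counts, which include T448M, it was 8.16 (adjusted p = 0.45) and the slope 2.40, and by limma on log2(TPM + 1) the group estimate was 2.75 (adjusted p = 0.99). Inner neuron markers, which followed Gfpt1 over the rats at r = 0.68 and Spearman coefficient = 0.67 (permutation p = 7e-05 and 0.00017), averaged 3.04 as mean log2(TPM + 1) in normoglycemic males, 4.48 in normoglycemic females and 4.68 in hyperglycemic rats. Of all genes tested, 7.38% had an r with these markers at least as high as that of Gfpt1. With library quality as covariates the Gfpt1 estimate was 4.46 (unadjusted p = 0.0098, adjusted p = 0.38).

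**Figure D5:**
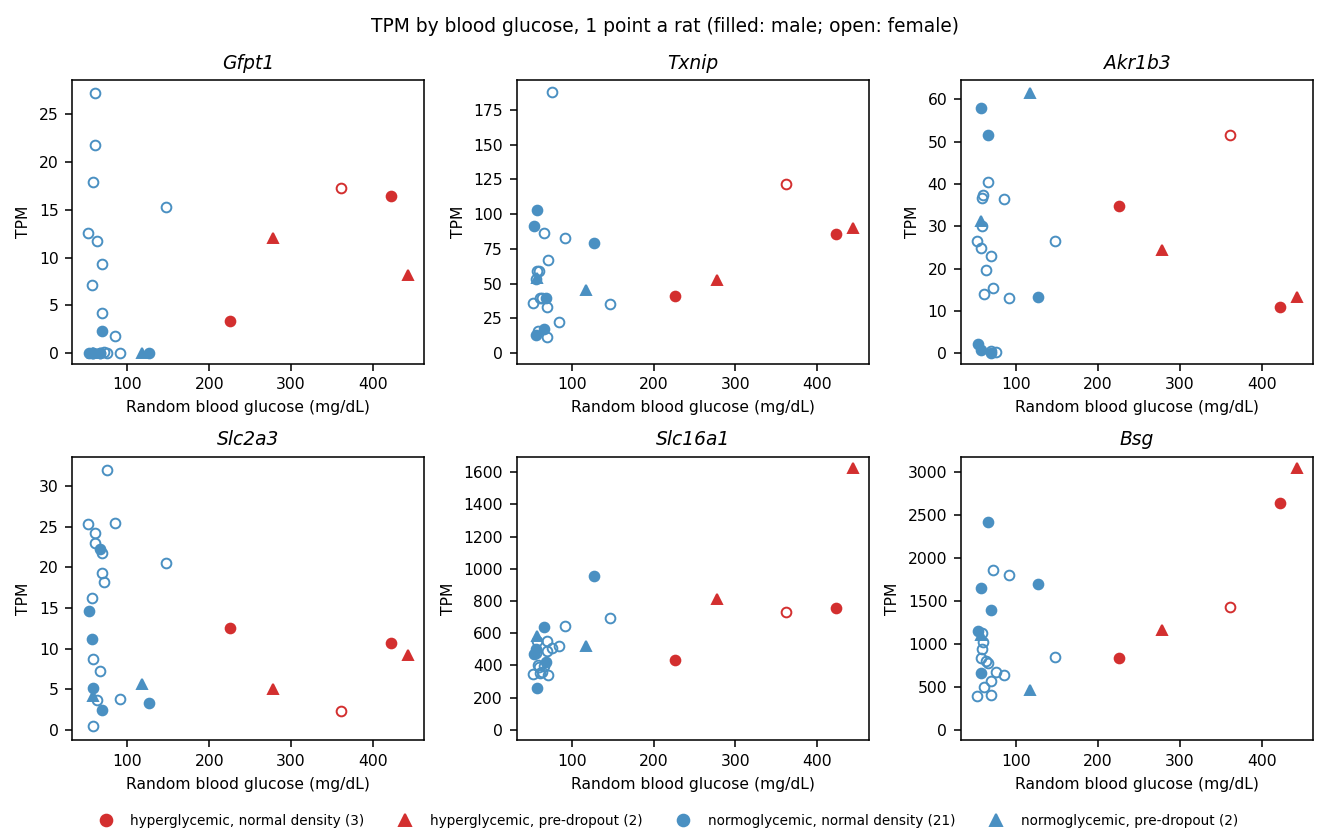
TPM of each rat (filled male, open female, red hyperglycemic, triangles pre-dropout) plotted over its random blood glucose in mg/dL, for Gfpt1, Txnip, Akr1b3, Slc2a3, and 2 further genes of lactate transport, Slc16a1 and Bsg. Gfpt1 is near 0 in 7 of 8 normoglycemic males and above 3 TPM in all 5 hyperglycemic rats, and Slc16a1 and Bsg are highest in T389M.

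The other hexosamine genes had smaller estimates. Ogt was 19.4 to 74.0 TPM in hyperglycemic rats (median 34.5) and 7.38 to 176 in normoglycemic rats (median 35.5), with a log2 estimate of 0.46 (SE 0.54, unadjusted p = 0.41). That estimate turned to -0.26 with no covariate. Gfpt2, the second entry enzyme, was at 0 in 3 of 5 hyperglycemic rats, and its slope was -0.80 per 100 mg/dL (SE 0.89, unadjusted p = 0.38).

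Within glycolysis the smallest p-values between the groups were those of Eno2 and Aldoc. Eno2 was 56.6, 57.3, 77.9, 110.6 and 204.6 TPM in the hyperglycemic rats, the highest in T370M, and 0 to 187 in normoglycemic rats with a median of 59.5. The edgeR estimate was 1.29 (SE 0.68, unadjusted p = 0.066, adjusted p = 0.89). Aldoc was 472 to 772 TPM in hyperglycemic rats and 97.5 to 1137 in normoglycemic rats, and 4 of 5 hyperglycemic rats lay above the normoglycemic median of 542. Its estimate was 0.62 (SE 0.36, unadjusted p = 0.095, adjusted p = 1) and its slope 0.16 per 100 mg/dL (SE 0.13, unadjusted p = 0.22). Gapdh, often used as a reference transcript, had a slope of 0.12 (SE 0.084, unadjusted p = 0.16) and ranged from 91.6 to 247 TPM over all rats. The sum of Eno1 and Eno1b averaged 2380 ± 384 TPM in hyperglycemic rats and 2057 ± 449 in normoglycemic rats (SD, n = 5 and 23, two-sided exact permutation p = 0.14).

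Slc16a3, the lactate exporter, went the other way by median: all 5 hyperglycemic rats, at 12.2 to 30.4 TPM, lay below the normoglycemic median of 31.9, inside a normoglycemic range of 0.247 to 100. The same held for Slc2a3, the glucose transporter of neurons, at 2.37 to 12.5 TPM against a normoglycemic median of 14.6. Most normoglycemic rats were female, and the medians of normoglycemic males alone were 28.9 TPM for Slc16a3 and 5.39 for Slc2a3. With sex in the model the edgeR group estimate of Slc16a3 was -0.44 (SE 0.50, unadjusted p = 0.39). The slope of Slc2a3 was -0.081 per 100 mg/dL (SE 0.22, unadjusted p = 0.72) and became positive by limma-voom and within males. Over all 38 genes, Slc16a3 and Slc2a3 were the 2 with no hyperglycemic rat above the normoglycemic median, which held for 5.14% of all genes tested.

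Polyol genes showed no detectable difference by glucose at this group size. Akr1b3, the aldose reductase through which high glucose enters the polyol route, was 11.01 in T446M, 13.2 in T389M, 24.4 in T391M, 34.9 in T370M and 51.6 TPM in T392F. The normoglycemic rats ran from 0 to 61.4 with a median of 24.8. The 2 rats with the highest glucose thus had the 2 lowest values of the hyperglycemic group. The estimate was 0.16 with a 95% interval from -1.53 to 1.85 (edgeR, unadjusted p = 0.85), and it was negative within males (-0.46) and without T392F (-0.48). Sord gave a slope of -0.22 per 100 mg/dL (SE 0.54, unadjusted p = 0.68). Khk was at 0 in T391M and T392F and reached 11.1 TPM in T370M, with an estimate of -1.962 (SE 1.80, unadjusted p = 0.28) and a slope of -0.68 (SE 0.59, unadjusted p = 0.26).

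In the pentose phosphate pathway the 2 oxidative enzymes had the smallest p-values between the groups, and both were highest in T370M. G6pdx was 47.5 TPM in T370M, against 2.14 to 10.1 in the other 4 hyperglycemic rats and 0 to 19.7 in normoglycemic rats. Its estimate was 0.77 (SE 0.76, unadjusted p = 0.32), and without T370M it was -0.13. Its slope was 0.069 per 100 mg/dL (unadjusted p = 0.82). Pgd was 48.4 TPM in T370M, 14.4 to 26.9 in the other 4 and 0.391 to 43.6 in normoglycemic rats, with an estimate of 0.95 (SE 0.64, unadjusted p = 0.15) and a slope of 0.33 (SE 0.24, unadjusted p = 0.19). Without T370M the estimate was 0.60. T370M had the highest rod markers, and Pgd followed rod markers over all rats as given above. Tkt had a slope of 0.072 (SE 0.12, unadjusted p = 0.56), and Taldo1 averaged 88.7 ± 10.2 TPM in hyperglycemic and 85.6 ± 38.8 in normoglycemic rats (SD, n = 5 and 23).

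Txnip, a transcript known to be induced by glucose, was 40.9 in T370M, 52.8 in T391M, 85.4 in T446M, 90.03 in T389M and 121.8 TPM in T392F. The normoglycemic rats ran from 11.95 to 187.5 with a median of 45.6, and 4 of 5 hyperglycemic rats lay above that median. The edgeR estimate was 0.54 (SE 0.46, unadjusted p = 0.24, adjusted p = 1) and the slope 0.23 per 100 mg/dL (SE 0.15, unadjusted p = 0.14). Within males the estimate was 0.20, and without T392F it was 0.19. Pdk2 gave 0.58 (SE 1.05, unadjusted p = 0.59), and Glo1, which removes methylglyoxal, averaged 104 ± 29 TPM in hyperglycemic and 116 ± 40 in normoglycemic rats (SD, n = 5 and 23).

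Of 97 other genes of the same pathways, 79 were tested, and 34 (43.0%) lay above 0 and 45 below in each glucose fit. Over all genes tested 52.4% lay above 0 on the slope and 56.0% between the groups. At an unadjusted p under 0.05, 3 of the 79 had a higher and 2 a lower slope, against 2.27% and 1.54% of all genes. Between the groups 2 were higher and 1 lower, against 5.22% and 1.16% of all genes. Slc16a1, the lactate transporter MCT1 of the vessel wall, had the smallest p. It was 433 in T370M, 814 in T391M, 732 in T392F, 759 in T446M and 1627 TPM in T389M, the rat with the highest glucose. The normoglycemic rats ran from 259 to 955 with a median of 488, so 4 of 5 hyperglycemic rats lay above that median and 1 above the whole range. The slope was 0.35 per 100 mg/dL (SE 0.080, edgeR unadjusted p = 7.8e-05, adjusted p = 0.67), and 0.26 without T389M (unadjusted p = 0.015). DESeq2 called the slope (adjusted p = 0.0047), as did edgeR with no filter on low counts (adjusted p = 0.038) and with library quality as covariates (adjusted p = 0.047).

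Between the groups Slc16a1 gave 0.75 (SE 0.27, unadjusted p = 0.0072, adjusted p = 0.31), and 0.41 without T389M. Bsg (basigin, the chaperone that carries MCT1 to the membrane) had a slope of 0.28 (SE 0.10, unadjusted p = 0.012, adjusted p = 0.99), and its 5 hyperglycemic values were 838 in T370M, 1155 in T391M, 1433 in T392F, 2640 in T446M and 3042 TPM in T389M. The normoglycemic rats ran from 388 to 2412 with a median of 841, so 2 hyperglycemic rats lay above the whole range and 1 below the median. The other 3 rest on few rats. Ldhc (the testis lactate dehydrogenase) was at 0 in all 5 hyperglycemic rats and had counts in 4 normoglycemic ones, with the highest, 407.5 TPM, in the shallow library T448M. Its slope was -2.98 per 100 mg/dL (SE 0.84, unadjusted p = 0.0012, adjusted p = 0.75), a value that depends on the zeros, and it gave no estimate without the shallow libraries. Akr1b8 (an aldo-keto reductase) had counts in 1 hyperglycemic rat, with a slope of -2.0 per 100 mg/dL (SE 0.90, unadjusted p = 0.032), and G6pc (glucose 6-phosphatase of liver and kidney) had counts in 1 hyperglycemic rat, T389M. The G6pc estimate between the groups was 4.16 (SE 1.83, unadjusted p = 0.029, adjusted p = 0.57), and without T389M it was -1.99.

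Pre-dropout rats, whose acellular capillary density lay just below the limit that the study uses for dropout, were compared with rats of normal density. edgeR called 0 of 13800 genes (0%) and DESeq2 called 5, and 0 of the 38 genes had an unadjusted p under 0.05, against 2.86% of all genes in either direction. Glycolysis estimates leaned low, with 19 of 21 below 0 and a median of -0.23, while over all genes 41.1% lay above 0 and the median was -0.13. Of the rest, 2 of 3 polyol, 2 of 4 pentose phosphate, 1 of 3 hexosamine and 5 of 7 of the pyruvate, sensing and methylglyoxal genes lay above 0. Rod markers leaned the same way, with 12 of 13 below 0 (median -0.83), as did 8 of 9 cone (-0.68), 13 of 15 inner neuron (-0.62) and 7 of 8 pericyte markers (-0.42). Above 0 lay 10 of 10 endothelial (0.19) and 4 of 4 erythrocyte markers (0.74), and 0 markers of these 6 lists were called. All 4 pre-dropout rats are male, and with sex as a covariate 17 of the 38 lay above 0, compared with 12 without it. The median over all genes tested moved too, from -0.13 to -0.023 with sex as a covariate.

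Ldhb and Hk2 were the 2 glycolysis genes with estimates above 0. Ldhb was 48.2, 49.6, 64.0 and 81.6 TPM in the pre-dropout rats, all above the normal density median, with an estimate of 0.46 (SE 0.30, unadjusted p = 0.13, adjusted p = 0.9999). Its share of Ldha plus Ldhb TPM was 27.3% ± 4.78 in pre-dropout and 18.3% ± 6.95 in normal density rats (SD, n = 4 and 24, two-sided exact permutation p = 0.018, adjusted p = 0.29 over 16 shares). The normal density rats ran from 7.34% to 32.9%, which covers the pre-dropout range of 22.1% to 31.99%. Leaving out 1 pre-dropout rat at a time gave differences of 7.43 to 10.7 percentage points.

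Slc2a3 and Pfkp were low in the same rats. Slc2a3 was 4.19, 4.99, 5.63 and 9.18 TPM in the pre-dropout rats, none above the normal density median, with an estimate of -1.11 (SE 0.71, unadjusted p = 0.13). Pfkp, the platelet-type phosphofructokinase, was 2.36, 7.24, 7.50 and 8.13 TPM, also none above that median, with -0.90 (SE 0.72, unadjusted p = 0.22). With Hk1, Ldha and Tkt, 5 of the 38 genes had no pre-dropout rat above the normal density median, against 10.4% of all genes tested. Ldhb, Pdha1, Pdk2 and Pfkfb4, 4 of the 38, had every pre-dropout rat above it, against 6.62% of all genes. For Pfkfb4 the estimate was nonetheless -0.12 and the pre-dropout mean, 3.66 TPM, lay below the 4.41 of normal density rats. Pdha1 gave 0.87 (SE 0.85, unadjusted p = 0.31).

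Gfpt2 had the smallest p of the 38 in this comparison, and it rested on few counts. It was 0, 0.091, 2.91 and 6.94 TPM in the pre-dropout rats and 0 to 3.24 in normal density rats, with an estimate of 2.51 (SE 1.40, unadjusted p = 0.080, adjusted p = 0.9999). The 2 highest values were those of T391M and T407M, and without T407M the estimate was 1.097. With sex as a covariate it was 4.01 (unadjusted p = 0.037, adjusted p = 1). Ogt gave -0.45 (SE 0.57, unadjusted p = 0.43) and 0.23 with sex as a covariate. The polyol genes Akr1b3 (0.55, SE 0.88, unadjusted p = 0.54) and Sord (0.46, SE 1.35, unadjusted p = 0.73) and the pentose phosphate genes Tkt (-0.17, SE 0.36, unadjusted p = 0.63) and G6pdx (-0.35, SE 0.83, unadjusted p = 0.67) had standard errors larger than their estimates.

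Slc16a1 was above the normal density median in all 4 pre-dropout rats, at 517, 581, 814 and 1627 TPM, with an estimate of 0.85 (SE 0.28, edgeR unadjusted p = 0.0048, adjusted p = 0.9999). Without T389M it was 0.33, and with sex and glucose as covariates 0.18. T389M and T391M belong to both the hyperglycemic and the pre-dropout group, so the density estimate is not separate from the glucose estimate.

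The difference by glucose was also compared between the density groups, where the pre-dropout side held 2 hyperglycemic and 2 normoglycemic rats. edgeR called 0 of 15051 genes (0%) for the product term, and 0 of the 38 had an unadjusted p under 0.05, against 4.69% of all genes. Pfkl, the liver-type phosphofructokinase, had the smallest p, with 1.60 on the log2 scale (SE 0.86, unadjusted p = 0.069). It was 70.4 and 84.6 TPM in the hyperglycemic pre-dropout rats T391M and T389M and 28.4 and 43.6 in the normoglycemic ones, T407M and T353M. In normal density rats it was 50.2 to 69.7 TPM in the 3 hyperglycemic rats. The normoglycemic rats of normal density ran from 13.9 (T445F) to 140.9 TPM (T401F), which covers all of these values. Hk1 gave 0.87 (SE 0.67, unadjusted p = 0.20) and Gfpt1 5.18 (SE 3.81, unadjusted p = 0.18). The other genes with the 2 smallest p-values in their pathways, G6pdx, Tkt, Akr1b3, Sord, Gfpt2, Pdha1 and Slc2a3, had unadjusted p from 0.19 to 0.62.

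Isoenzyme shares, the percent of the summed TPM of enzymes for 1 step, were compared between groups by exact two-sided permutation tests. Of 16 comparisons, 0 had an adjusted p under 0.05, and 2 had an unadjusted p under 0.05, both between density groups. One was Ldhb, given above. The other was Hk2, at 2.45% ± 3.16 of hexokinase TPM in pre-dropout and 0.578% ± 1.04 in normal density rats (SD, n = 4 and 24, permutation p = 0.038, adjusted p = 0.30), and it rested on T353M, at 6.79%, without which the difference fell from 1.87 to 0.42 percentage points. By glucose the smallest p was that of Gfpt2 in Gfpt1 plus Gfpt2. It was 4.11% ± 8.59 in hyperglycemic and 40.1% ± 47.4 in normoglycemic rats that had either (SD, n = 5 and 19, permutation p = 0.14, adjusted p = 0.73). The normoglycemic rats ran from 0 to 100%. In T430F, T411M, T399F, T425M and T348M, which had no Gfpt1 count, 100% rested on 1 to 4 Gfpt2 counts, and in T408F and T407M on 13 and 45. The normoglycemic mean thus rests in part on very few counts. The Aldoc share was 70.1% ± 6.12 in hyperglycemic and 64.3% ± 15.9 in normoglycemic rats (SD, n = 5 and 23, permutation p = 0.45).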

How the data were processed

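Total RNA of the whole retinal vasculature of 28 rats was sequenced by the authors, 1 library per rat, prepared by LM-seq. The expected counts deposited by the authors are estimates with fractions, unscaled between libraries, and the TPM deposited by the authors are scaled per library and by gene length. Their rows are named after mouse genes, and both were taken as values of CRSP, the authors' comparative RNA-seq pipeline. The study describes CRSP as joining transcript assembly with alignment to mouse transcripts. The aligner behind these tables is not given in the sources used here, and a wrong gene length or a near-identical copy would move levels between genes. Of the 38 symbols, 37 stand in the Nile rat RefSeq annotation, and Slc2a3 was not matched there. The annotation was used for names alone, so positions and sequences are left out.

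Each rat's sex, capillary density and glucose came from the labels, and the unit mg/dL from the study's methods. A rat was hyperglycemic above 200 mg/dL. No rat lay between 146.9 and 225.7. Counts were rounded and fitted over all genes in edgeR 4.0.16 under R 4.3.3 (TMM, filterByExpr with a minimum count of 10, quasi-likelihood F test, Benjamini-Hochberg adjustment, threshold 0.05, and 2-fold for the group comparisons). Standard errors are the log2 estimate over the square root of F, and intervals are 95% normal ones. Correlations used 100000 permutations. Shares used exact permutation tests (Python 3.11.15, NumPy 2.4.6, SciPy 1.17.1, pandas 2.3.3). The fitting script was tested on simulated counts.

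Alternatives were DESeq2's size factors, upper-quartile scaling, no filter or a minimum of 1 CPM in 14 libraries, limma 3.58.1 (voom with sample weights, or log2(TPM + 1) or log2(TPM + 0.1)), DESeq2 1.42.0, other covariates, males only, no libraries under 1000000 counts, no pre-dropout rats, log2 glucose, and each hyperglycemic or pre-dropout rat left out in turn. A count of 0 allows up to 3 counts, 0.299 to 19.6 CPM by library, for counting error alone. p-values measure the spread between rats.

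All 38 genes are named with their levels. Statistics are given for those with an unadjusted p under 0.05 in a fit and for the 2 smallest p in each pathway, and for other pathway genes with an unadjusted p under 0.05 in a glucose fit. The summed Eno1 rows and the genes by rats above a median were added after the values were seen. The 38 genes and the lists were chosen with earlier results of these data known.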

Additional observations from a re-analysis of the deposited data

Results flagged for a closer look

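Of 86 sets of values examined (the 38 genes and 5 others in the 5 hyperglycemic and the 4 pre-dropout rats), 14 had 1 rat whose gap to its nearest neighbor took up more of the group's range than Dixon's 95% limit allows. That limit flags about 1 in 20 sets by chance only for normally distributed values. TPM here are skewed with many zeros, and a set with a single value above 0 is always flagged. T389M and T391M also belong to both groups. The 14 sets can therefore not be read as more than chance gives.

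In the hyperglycemic group, G6pdx was 47.5 TPM in T370M while the other 4 rats ran from 2.14 to 10.1. The same rat held the only Akr1b8 counts of the group, at 2.62 TPM. Gfpt2 was 2.91 TPM in T391M, with the others at 0.091 or 0, and Pfkfb4 was 8.93 TPM in T391M. G6pc was 5.50 TPM in T389M and 0 in the other 4.

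In the pre-dropout group, T353M stood apart for 4 genes, with Pfkfb3 at 8.63 TPM, Taldo1 low at 47.1, Akr1b8 at 20.4 and Ldhc at 29.9. T391M was highest for Eno1 at 18.03 TPM and for Pfkfb4 at 8.93. T389M had no Sord, 0 against 2.20 to 2.46 TPM, and the only G6pc, 5.50 TPM. T407M was low for Pfkp, at 2.36 TPM against 7.24 to 8.13.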

How the results depend on the processing

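None of the 38 genes was called by edgeR under any scaling, filter or covariate tried, or with a rat left out, and DESeq2 called 1, Gfpt1, between the glucose groups. Calls among all genes, 0 in the results reported, became 152 on the slope, 1 between the glucose groups and 72 between density groups with no filter on low counts, 22, 45 and 5 by DESeq2, and 6, 3 and 47 with library quality as covariates. The slope gave 2 without pre-dropout rats, the glucose groups 8 within males, and density 4 by limma-voom. With rats left out the counts were 0 to 0. Of 786 estimates of named genes under alternatives, 756 kept their direction and side of the threshold, 26 changed sign and 4 passed the threshold, namely Gfpt1 and Slc16a1 as given above. Of 122 share differences 108 kept both and 14 changed sign. The causes of the sign changes were not tested.

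On the slope Slc2a3 became 0.036 by limma-voom, 0.0015 within males and 0.028 without T392F (range -0.1651 to 0.028 with 1 rat left out), and G6pc -1.27 without pre-dropout rats and -1.11 without T389M (range -1.11 to 1.384). Between glucose groups Akr1b3 became -0.035 by limma-voom, -0.087 with rod markers and -0.11 with library quality as covariates, -0.46 within males and -0.48 without T392F (range -0.48 to 0.3612). Ogt became -0.096, -0.16 and -0.26 with rod markers, library quality and no covariate. Pdk2 was -0.024 by limma-voom, G6pdx -0.13 without T370M (range -0.13 to 0.9704), and G6pc -2.57 without pre-dropout rats and -1.99 without T389M (range -1.99 to 4.842). Between density groups Sord was -0.57 by limma-voom, G6pdx 0.24 by limma on log2(TPM + 0.1) and Akr1b3 -0.063 without T407M (range -0.063 to 0.83). With sex, with sex and glucose, and within males, Tkt was 0.040, 0.031 and 0.065, and Ogt 0.23, 0.25 and 0.23.

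Between density groups the Eno2 share difference, in percentage points, became -1.81 on expected counts, -4.13 without libraries under 1000000 counts, -10.2 within males and -1.35 with Eno1b added, and the Aldoc share -0.24 on expected counts. Within males the Gfpt2 share was -9.81 between density groups, and by glucose the Pfkp share was 0.58 and the Ldhb share 1.45. With 1 rat left out at a time, the density differences ran from -3.15 to 3.55 for Eno2, -2.49 to 6.40 for Aldoc and -21.3 to 28.2 for Gfpt2, and the glucose difference for Ldhb from -2.20 to 0.83.

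No paired analysis was made, because each library came from a different rat and the labels name no pairs. With 5 hyperglycemic and 4 pre-dropout rats, small changes could not be seen, and genes with few counts in the shallow libraries T410F and T448M had little precision.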
